A study of Mus musculus with 6 samples.

Results

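The giant cadherins of the Celsr, Fat and Dachsous families were examined in astrocytes from mouse brain. The genes are Celsr1, Celsr2, Celsr3, Fat1, Fat2, Fat3, Fat4 and Dchs1, and they were looked up by Ensembl identifier among the 17193 gene rows of the deposited tables. All 8 had a row. The family was chosen by the FPKM values of Celsr2, which had been seen to fall after quinpirole in these same libraries, so the comparison of quinpirole with mock is given for these genes as a description, without a test. Astrocytes came from the brains of wild type C57BL/6 mice aged 3 month, and the labels name 2 groups that differ in treatment, Mock and Quinpirole, with 3 libraries each. Quinpirole is an agonist of the dopamine receptor DRD2, and the labels do not say what the Mock mice received. The cells were collected with microbeads against ACSA-2, a surface antigen of astrocytes, and their polyadenylated RNA was sequenced. The labels do not say whether each library came from a separate animal, so the p-values below measure only the spread between these libraries.

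These proteins are among the longest members of the cadherin superfamily and carry long chains of cadherin repeats outside the cell. Celsr proteins are the mammalian relatives of fly Flamingo, pair with themselves across neighbouring cells, and combine a cadherin ectodomain with the membrane part of an adhesion G protein-coupled receptor. Along with Frizzled and Vangl proteins they form the core machinery of planar cell polarity, by which cells orient themselves within a sheet. Fat proteins span the membrane once. In the fly, Fat binds Dachsous on the adjoining cell and feeds into the Hippo growth-control pathway, and in mammals Fat4 and Dchs1 are the corresponding pair.

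On GRCm38, with gene models from GENCODE M21, the 8 genes lie on 6 chromosomes. Celsr2 occupies chr3:108390851-108415552 on the minus strand and Fat4 lies on the same chromosome at chr3:38886940-39011985 on the plus strand. Celsr3 at chr9:108826320-108852969 on the plus strand shares chromosome 9 with Fat3 at chr9:15910189-16501285 on the minus strand. Celsr1 is found at chr15:85898929-86033777 on the minus strand, Dchs1 at chr7:105752990-105787654 on the minus strand, Fat1 at chr8:44935447-45052257 on the plus strand and Fat2 at chr11:55250609-55336564 on the minus strand. All 8 are long genes at the level of the transcript. Their exons cover from 11007 bases in Celsr1 to 21478 bases in Fat3, with 11052 bases in Dchs1, 11513 in Celsr2, 12063 in Celsr3, 14528 in Fat2, 15655 in Fat1 and 17165 in Fat4. The GC content of the longest transcript was 57.8% to 58.8% in the 3 Celsr genes and Dchs1, against 46.6% to 52.3% in the 4 Fat genes.

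A promoter window from RefSeq on GRCm38.p6, running from 250 bases before to 50 bases after the annotated start, was given for 6 of the 8 genes and not for Celsr1 or Dchs1. The windows of Celsr2, Fat4 and Celsr3 are shown because their RefSeq starts lay 27, 0 and 275 bases from the GENCODE starts, whereas the RefSeq starts of Fat1 and Fat2 lay 14761 and 24307 bases away and that of Fat3 769 bases away. Each is written from the 5′ end on the strand of the gene, in lower case, with CpG dinucleotides in capitals. They lie at chr3:108415530-108415829 on the minus strand, chr3:38886690-38886989 on the plus strand and chr9:108825795-108826094 on the plus strand.
Celsr2 promoter window: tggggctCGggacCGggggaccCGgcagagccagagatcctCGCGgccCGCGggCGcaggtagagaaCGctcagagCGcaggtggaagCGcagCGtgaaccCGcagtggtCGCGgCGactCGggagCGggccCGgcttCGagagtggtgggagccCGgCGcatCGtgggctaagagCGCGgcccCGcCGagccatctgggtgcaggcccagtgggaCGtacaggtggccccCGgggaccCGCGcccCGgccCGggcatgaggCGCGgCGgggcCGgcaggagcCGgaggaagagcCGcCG
Fat4 promoter window: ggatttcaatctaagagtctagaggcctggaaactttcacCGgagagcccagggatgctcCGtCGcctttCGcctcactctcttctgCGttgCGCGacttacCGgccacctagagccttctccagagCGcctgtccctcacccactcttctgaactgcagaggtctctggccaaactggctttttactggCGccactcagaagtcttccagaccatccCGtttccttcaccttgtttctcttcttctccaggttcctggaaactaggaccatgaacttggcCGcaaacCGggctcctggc
Celsr3 promoter window: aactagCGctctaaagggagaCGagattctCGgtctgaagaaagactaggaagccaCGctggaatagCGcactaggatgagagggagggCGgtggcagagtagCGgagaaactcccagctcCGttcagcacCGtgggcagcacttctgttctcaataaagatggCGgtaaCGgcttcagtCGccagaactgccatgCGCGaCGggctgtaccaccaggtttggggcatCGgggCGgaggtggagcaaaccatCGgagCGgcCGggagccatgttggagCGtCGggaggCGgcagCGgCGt
The Celsr2 window held 40 CpG dinucleotides, more than 96.1% of the 32851 windows of the same length, whose median was 7. Celsr3 had 25 and Fat4 had 13, and of the windows not shown Fat3 had 35, Fat2 had 4 and Fat1 had 2. Short motifs were searched on both strands, namely the core of the antioxidant response element (TGACNNNGC), the site of TEAD factors that act with YAP (GGAATG) and that of TCF/LEF factors that act with β-catenin (ATCAAAG). They occurred in 12.4%, 14.7% and 3.73% of all windows, and none of the letters was present in the Celsr2, Celsr3, Fat3 or Fat4 window. The Fat1 window held 1 TGACNNNGC, 19 bases after its RefSeq start, and 1 GGAATG before it, and the Fat2 window 1 GGAATG. Those RefSeq starts lay 14761 and 24307 bases from the GENCODE starts, so these letters do not show a site in a promoter.

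Expression is given as FPKM, the number of sequenced fragments scaled to transcript length and library depth, which the authors computed. Counts were not analysed here. The steps of the lowest FPKM values gave an estimated depth of 25600000 to 27700000 fragments in the mock libraries and 22300000 to 26600000 in the quinpirole libraries. The 8 astrocyte markers were all above 1 FPKM and summed to 1158 to 1268 FPKM in mock and 1125 to 1160 in quinpirole, and 2 of them, Slc1a2 and Atp1b2, passed the test as lower. Atp1b2 encodes ACSA-2, and its mean was 178 ± 2.94 FPKM in mock and 156 ± 7.23 in quinpirole (SD, n = 3). Drd2, the receptor of quinpirole, was at 0 to 0.104 FPKM in every library. Markers of other cell types were detected as well. Most of those listed for neurons and mural cells stayed below 1 FPKM in all libraries. Their sums, given below, therefore do not show that these cells were present. The 5 microglial markers summed to 314 to 332 FPKM in mock and 332 to 365 in quinpirole, with none past the threshold. The sum of 7 neuronal markers was 70.8 to 76.2 in mock and 82.7 to 89.3 in quinpirole, with Stmn2 past the threshold as higher and Snap25, Syt1, Rbfox3, Gad1 and Slc17a7 below 1 FPKM in all libraries. The 3 mural cell markers summed to 25.4 to 27.4 in mock and 21.1 to 22.0 in quinpirole, with Pdgfrb past the threshold as lower and Rgs5 and Kcnj8 below 1. The 5 ependymal markers, of interest because ependymal cells rely on Celsr proteins to align their cilia, summed to 136 to 149 in mock and 136 to 143 in quinpirole, with none past the threshold and Tmem212 and Dnah11 below 1. The part of these cells in the results below was not tested, and in a bulk sample fewer cells of a type and less RNA per cell cannot be told apart.

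Fat1 and Celsr2 were by far the most abundant giant cadherins of these astrocytes. By the mean of the 6 libraries, Fat1 stood at 77.1 FPKM, Celsr2 at 24.7, Celsr1 at 4.37, Dchs1 at 3.61, Fat4 at 1.17, Fat3 at 1.06, Celsr3 at 0.344 and Fat2 at 0.00371. Since FPKM is divided by length, these levels can be set beside one another. Fat1 was 2.65 to 3.50 times as high as Celsr2 within a library, and Celsr2 was 5.22 to 5.92 times as high as Celsr1. The ranges over the 6 libraries overlapped for only 2 neighbouring pairs in this order. Celsr1 lay above Dchs1 in 6 of 6 libraries, by 1.11 to 1.31 times, although their ranges over libraries overlapped. Fat4 lay above Fat3 in 4 of 6 libraries, and this pair could not be ordered. Together the 8 genes summed to 155, 146 and 122 FPKM in mock libraries 1 to 3 and to 93.1, 72.1 and 85.1 in quinpirole libraries 1 to 3, and Fat1 alone made up 64.8% to 71.1% of that sum.

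In 6 of the 8 genes all quinpirole libraries lay below all mock libraries. These 6 were Fat1, Fat3, Fat4, Dchs1, Celsr1 and Celsr2, and their means were 27.9% to 43.8% below the mock means. Celsr3 also had a lower mean after quinpirole, but its quinpirole libraries lay on either side of the mock libraries. The remaining genes, Celsr3 and Fat2, had a mean below 1 FPKM over the 6 libraries and were left out of the comparison across all genes, which covered 12255 genes. Of all genes compared, 46.2% had a lower mean after quinpirole, and 16.9% had every quinpirole library below every mock library. Fold changes are given as log2(FPKM + 1), quinpirole minus mock, and the added 1 understates the change of genes with low FPKM.

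**Figure D1:**
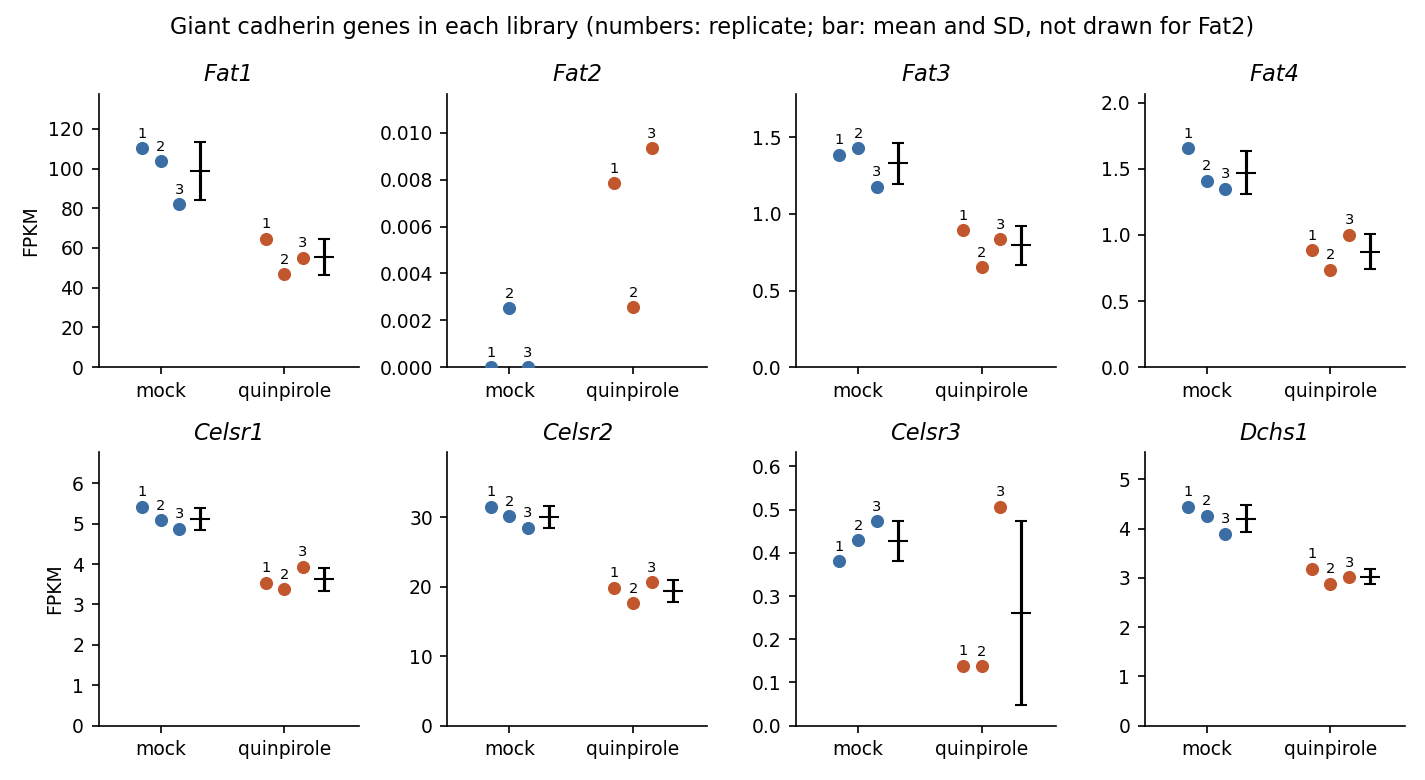
FPKM of each of the 8 giant cadherin genes (vertical axis, a separate linear scale from 0 for each gene) in the 3 mock and the 3 quinpirole libraries, with the replicate number above each point and the mean and SD beside each group except for Fat2. In the panels of Fat1, Fat3, Fat4, Celsr1, Celsr2 and Dchs1 the 3 quinpirole points lie below the 3 mock points, while in Celsr3 the third quinpirole library is the highest of all 6.

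Fat1, a regulator of actin dynamics and cell migration, had the largest decrease of the 8. It was at 110.2, 103.7 and 82.1 FPKM in mock libraries 1 to 3 and at 64.6, 46.7 and 55.1 FPKM in quinpirole libraries 1 to 3. The groups did not overlap, but mock library 3 was well below the other mock libraries. The mean went from 98.7 ± 14.7 to 55.5 ± 8.94 FPKM (SD, n = 3 each), a log2 fold change of -0.82 (SE 0.14). Among the 12255 genes compared, Fat1 ranked 14 from the most negative fold change.

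Fat4 and Dchs1 are the mammalian receptor and ligand pair of the Fat-Dachsous system, which is known for its part in the proliferation and migration of neural precursors. Fat4 was at 1.66, 1.41 and 1.35 FPKM in the mock libraries and 0.884, 0.736 and 1.00 FPKM in the quinpirole libraries. Its mean was 1.47 ± 0.163 in mock and 0.874 ± 0.133 in quinpirole, with a log2 fold change of -0.40 (SE 0.09). The highest quinpirole value stayed below the lowest mock value. For Dchs1 the mock libraries held 4.45, 4.26 and 3.90 FPKM and the quinpirole libraries 3.19, 2.89 and 3.01 FPKM. Its mean went from 4.20 ± 0.279 to 3.03 ± 0.152, and the log2 fold change was -0.37 (SE 0.07). Dchs1 thus exceeded its partner Fat4 in every library, by 2.68 to 3.92 times. Fat4 rests on few reads, an estimated 324 to 756 fragments per library, against 742 to 1307 for Dchs1.

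Fat3, known for shaping the dendrites of retinal amacrine cells, was expressed near the level of Fat4. Its values were 1.39, 1.43 and 1.18 FPKM in mock and 0.894, 0.653 and 0.836 FPKM in quinpirole. Again the groups did not overlap, and the mean went from 1.33 ± 0.134 to 0.794 ± 0.125 FPKM, a log2 fold change of -0.38 (SE 0.09). In percent, the means of Fat3 and Fat4 were 40.3% and 40.6% below mock, more than the 35.4% of Celsr2, although their log2(FPKM + 1) changes were smaller. Fat2, best known from the granule cells of the cerebellum, was at or near 0. It was listed at 0 in mock libraries 1 and 3, at 0.00251 FPKM in mock library 2, and at 0.00784, 0.00256 and 0.00934 FPKM in the quinpirole libraries. These values correspond to an estimated 8 fragments in all and no more than 3 in a library, so no fold is given.

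Celsr2, the gene that led to the choice of the family, contributes with its paralogs to the orientation of ependymal cilia and to the growth of axon tracts. It was at 31.5, 30.1 and 28.4 FPKM in the mock libraries and at 19.8, 17.6 and 20.7 FPKM in the quinpirole libraries. Within each group the libraries differed by at most 1.11 times in mock and 1.17 times in quinpirole, and the gap between the groups was wider than either range. The mean went from 30.0 ± 1.52 to 19.4 ± 1.58 FPKM, a log2 fold change of -0.61 (SE 0.07) that ranked 53 from the most negative. Celsr1, which is required for closure of the neural tube, was at 5.42, 5.08 and 4.88 FPKM in mock and at 3.54, 3.38 and 3.94 FPKM in quinpirole. Its mean was 5.13 ± 0.273 in mock and 3.62 ± 0.290 in quinpirole, with a log2 fold change of -0.41 (SE 0.07). The decrease of Celsr1 was 29.4% of the mock mean.

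Celsr3, the paralog known mainly from neurons and their axon tracts, did not separate the groups. The mock libraries held 0.380, 0.430 and 0.473 FPKM. In quinpirole libraries 1 and 2 it was at 0.138 FPKM each, but in quinpirole library 3 it was at 0.507 FPKM, the highest of the 6 values. The mean of the quinpirole group, 0.261 ± 0.213 FPKM, combines 2 libraries below all mock libraries and 1 above them. In estimated fragments these were 44.4, 42.6 and 136 in the quinpirole libraries against 122 to 146 in mock. When all genes with any value above 0 were fitted, its log2 fold change was -0.19 (SE 0.11).

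With limma on log2(FPKM + 1), 635 of the 12255 genes had a Benjamini-Hochberg adjusted p under 0.05 and were lower after quinpirole, which is 5.18%, and 704 were higher, which is 5.74%, making 10.9% in either direction. The 6 giant cadherins that entered were all among the lower genes. Because this contrast chose the family, nothing is read from that count. The median log2 fold change of the 6 was -0.40, beside 0.02 over all genes compared.

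The fold changes of all genes followed the length of the transcript, and the giant cadherins sit at its far end. Among 12223 genes with a known exonic length, the 2445 shortest, of up to 2514 bases, had a median log2 fold change of 0.12, and the 2445 longest, of at least 7767 bases, one of -0.11. Of 1236 genes with at least 10000 exonic bases other than these cadherins, 82.0% had a lower mean after quinpirole, their median was -0.14 and 261 of them, or 21.1%, passed the threshold as lower. The 6 cadherins therefore belong to a class of transcripts in which lower values were frequent. Within that class of 1242 genes, Fat1 ranked 5 and Celsr2 ranked 24 from the most negative fold change, while Celsr1 ranked 112, Fat4 122, Fat3 141 and Dchs1 156. These ranks are on log2(FPKM + 1), where the added 1 lowers the rank of genes with low FPKM. With a pseudocount of 0.1, Fat3 was at -0.68 and Fat4 at -0.69, against -0.63 for Celsr2. Ranks at that setting were not taken. What produced the dependence on length was not tested.

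**Figure D2:**
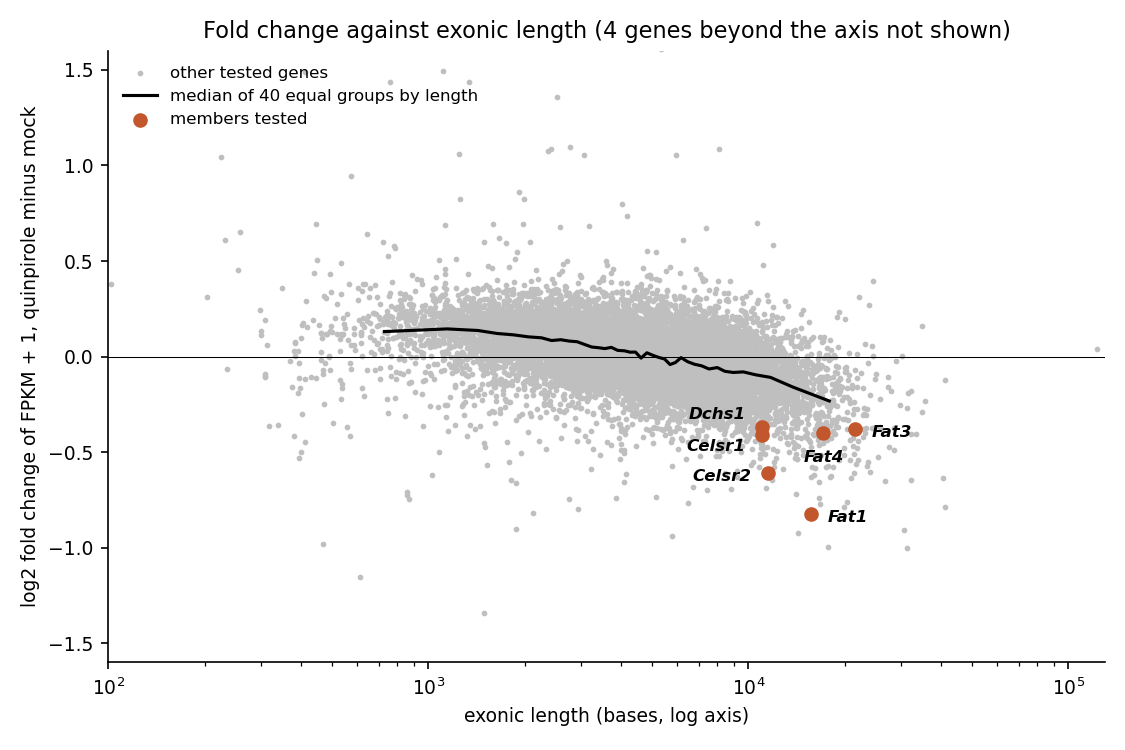
Log2 fold change of FPKM + 1, quinpirole minus mock (vertical axis), against exonic length in bases (horizontal log axis) for the genes compared, with 4 genes beyond the axis not drawn. The line joins the medians of 40 equal groups of genes by length and falls toward long genes; the 6 giant cadherins, in red, lie below it.

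Each library was then corrected for exonic length by a smooth fit, which would also remove a true change related to length. Fat1 kept a log2 fold change of -0.63 (SE 0.11) and Celsr2 one of -0.49 (SE 0.05). The other fold changes were -0.30 (SE 0.06) for Celsr1, -0.26 (SE 0.06) for Dchs1, -0.19 (SE 0.07) for Fat4 and -0.13 (SE 0.07) for Fat3. The fit was made on log2(FPKM + 1) over all genes, a scale that understates the change of Fat3 and Fat4 before any correction. Their corrected values may therefore lie too near 0, and the correction was not run with another pseudocount. With this correction 2.07% of all genes passed the threshold as lower, 3 of the 6 cadherins among them, and as the same contrast chose the family nothing is read from that count. When GC content was corrected too, the GC-rich Celsr genes and Dchs1 moved further toward 0. Fat1 was at -0.58 (SE 0.11), Celsr2 at -0.35 (SE 0.04), Celsr1 at -0.16 (SE 0.06), Fat4 at -0.15 (SE 0.07), Fat3 at -0.13 (SE 0.07) and Dchs1 at -0.12 (SE 0.06). With both corrections 1.06% of all genes passed as lower, 2 of the 6 cadherins among them, from which again nothing is read. All 6 genes kept a lower mean in quinpirole under each correction, beside 48.5% of all genes with the length correction and 48.7% with both, and the median of the 6 went from -0.28 with the length correction to -0.15 with both.

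**Figure D3:**
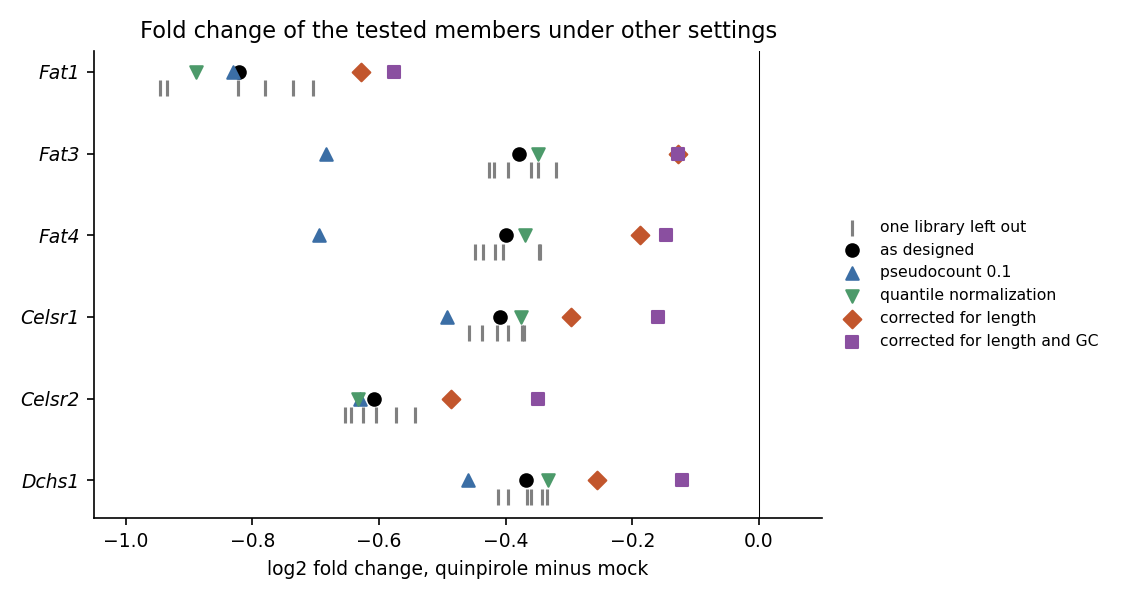
Log2 fold change of the 6 giant cadherins compared, quinpirole minus mock, under the reported setting (black), a pseudocount of 0.1, quantile normalization, the correction for length, the correction for length and GC content, and with each library left out in turn (grey ticks). All values lie left of 0, and the corrected ones lie nearest to it in each gene; with both corrections Fat1 is at -0.58 and Celsr2 at -0.35, and the other 4 genes lie between -0.16 and -0.12.

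The same genes also moved together between libraries of a single group. In mock library 3, 6 of the 6 were below their mock mean, and each had its lowest mock value there. In quinpirole library 2, likewise, 6 of 6 were below their quinpirole mean, and each had its lowest quinpirole value there. The median deviation of the 6 from the group mean was -0.08 in mock library 3 and -0.11 in quinpirole library 2, and 0.01 to 0.07 in the other libraries. Other long genes deviated in the same libraries, where 76.4% and 76.6% of the 1236 lay below the group mean, compared with 31.8% to 33.0% in the other 4 libraries. Their median deviation was -0.05 in mock library 3 and -0.06 in quinpirole library 2. After the length correction 6 of 6 cadherins were still below the group mean in both libraries, but their median deviation was -0.02 and -0.04. These deviations within groups do not enter the rule by which the family was chosen.

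**Figure D4:**
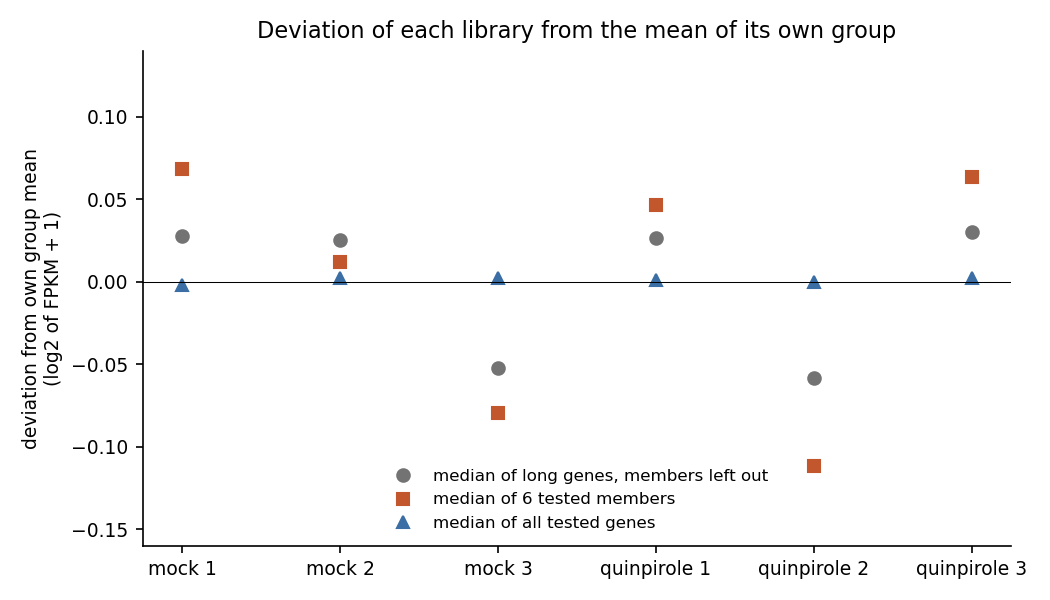
Deviation from the mean of the own group, in log2 of FPKM + 1 (vertical axis), for each of the 6 libraries, as the median of 1236 other long genes (grey circles), of the 6 giant cadherins compared (red squares) and of all genes compared (blue triangles). Mock library 3 and quinpirole library 2 lie below 0 for the cadherins and for long genes, while the median of all genes stays near 0 in all 6 libraries.

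The sequence of the transcripts limited some of the values. No word of 50 bases in the longest transcript of Celsr1, Celsr2, Fat2 or Fat3 occurred in a transcript of another gene. In Fat4, 8.39% of the words were shared, with 2 antisense transcripts, C230034O21Rik and Gm43539. Fat1 shared 2.69% with its antisense transcript Gm2366, Dchs1 shared 4.31% with a pseudogene on the opposite strand, Gm15645, and Celsr3 shared 0.139% with a microRNA gene on the same strand, Gm23156. The labels do not state a strand-specific kit, so reads of Fat4, Fat1 and Dchs1 cannot be told from those of the opposite strand in these stretches.

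The genes that followed Celsr2 most closely over the 6 libraries were Med13l, Peg3, Cachd1, Dnmt3a and Ptar1, with Pearson's r of 0.998 to 0.999 on the log2 scale. Such values were common, since 586 of 12254 genes reached an r of 0.95 with Celsr2. In that order Celsr1 came 59, Fat4 110, Dchs1 191, Fat3 231 and Fat1 392. When only deviations from the group means were compared, the closest genes were Qser1, Huwe1, Zfp871, Zmiz1 and Col14a1. By that measure 246 of 12254 genes reached an r of 0.95, and no giant cadherin did. Fat4 came 274 with an r of 0.946 and Celsr1 535 with 0.909. Fat3 came 899 with 0.861, Fat1 1405 with 0.798 and Dchs1 1751 with 0.745. These correlations are descriptions over 6 libraries that share the length-related deviation given above.

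Around the Celsr genes, 4 planar polarity genes passed the threshold as lower. Of the 24 genes listed, 20 were compared by limma. Thus 4 of 20 were lower, beside 5.18% of all genes compared. None was higher, beside 5.74%, which among 20 genes is no result about the list. The median log2 fold change was -0.11, beside 0.02. The median exonic length of the list was 6354 bases, and all genes of 5355 to 7766 bases had a median of -0.034. With the length correction the list median was -0.055, beside 0.005 over all genes. The 4 were Daam2, a formin that links Dishevelled to actin (-0.35, adjusted p = 0.0215), Dvl3, a Dishevelled protein (-0.25, adjusted p = 0.0225), the Frizzled receptor Fzd3, which acts with Celsr3 in axon guidance (-0.24, adjusted p = 0.0289), and the polarity scaffold Scrib (-0.24, adjusted p = 0.0290). Vangl2, the core protein that faces Frizzled across the cell border, was at -0.14 (adjusted p = 0.0756), Fzd6 at 0.10 (adjusted p = 0.332) and Dvl1 at 0.01 (adjusted p = 0.932), none of which passed. At an unadjusted limma p under 0.05, 8 genes of the list were lower and 1 was higher, beside 1715 and 2124 of 12255 genes. With the length correction Daam2, Dvl3 and Scrib passed and Fzd3, whose exons cover 12804 bases, did not, and with length and GC content Daam2 and Dvl3 passed, where 2.07% and 1.06% of all genes passed as lower. In this list 0 genes passed as lower without mock library 1, mock library 2, quinpirole library 1 or quinpirole library 2. There was 1 lower call without quinpirole library 3 and 5 without mock library 3.

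In the Hippo and Fat-Dachsous pathway, 8 of 32 genes compared fell and 2 rose, with a median of -0.12. The median exonic length of the list was 6201.5 bases. With the length correction the list median was -0.059, beside 0.005 over all genes. The 8 of 32 that fell stand beside 5.18% of all genes, whereas 2 of 32 is near the 5.74% of all genes that were higher and is no result about the list. Fjx1, the relative of the fly kinase Four-jointed that modifies Fat and Dachsous, went from 20.3 ± 0.0549 to 23.2 ± 0.641 FPKM (SD, n = 3 each, log2 fold change 0.18, limma adjusted p = 0.0379). Lix1l, a relative of the fly Fat-binding protein Lowfat, was at 0.19 (adjusted p = 0.0279). Among those that fell, Rere and Atn1, the atrophin proteins whose fly relative binds Fat, were at -0.47 (adjusted p = 0.0246) and -0.33 (adjusted p = 0.0262). Wwc1 (KIBRA), an upstream activator of the Hippo kinases, was at -0.20 (adjusted p = 0.0250). Amotl1, an angiomotin protein that binds YAP, was at -0.41 (adjusted p = 0.0259), the kinase Taok2 at -0.20 (adjusted p = 0.0341) and the membrane adaptor Frmd6 at -0.18 (adjusted p = 0.0432). The effectors Yap1 and Wwtr1 (TAZ) did not pass, at -0.15 (adjusted p = 0.0678) and -0.16 (adjusted p = 0.0533). Dchs2, the second Dachsous, was at a mean of 0.291 FPKM in mock and 0.252 in quinpirole and was not compared. After the length correction 4 genes passed as lower, Rere, Wwc1, Amotl1 and Atn1, beside 2.07% of all genes, and none as higher. With GC content as well, only Wwc1 passed (adjusted p = 0.0476), beside 1.06% of all genes, so the calls for Fjx1 and Lix1l held without these corrections only. Leaving out 1 library gave 0 to 7 lower and 0 to 1 higher calls. The lower calls were 0 without mock library 1, mock library 2, quinpirole library 1 or quinpirole library 2. They were 3 without quinpirole library 3 and 7 without mock library 3.

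Among the other adhesion G protein-coupled receptors, the class to which the Celsr proteins belong, 1 of 15 compared fell and none rose by limma. This share of 6.67% is near the 5.18% of all genes that were lower and is no result about the receptors. At an unadjusted limma p under 0.05, 2 receptors were lower and 0 higher, beside 1715 and 2124 of 12255 genes. With the length correction 1 was lower and 2 were higher, beside 1498 and 1660 of 12223 genes. With length and GC content 0 were lower and 2 higher, beside 1331 and 1573 of 12223 genes. Adgrb1 (BAI1), a phagocytic receptor for dying cells, was at -0.33 (adjusted p = 0.0322), and it did not pass after the length correction or without any 1 of the 6 libraries. The latrophilin Adgrl1 was at -0.06 (adjusted p = 0.818). Adgrv1, with 24878 exonic bases longer than any of the giant cadherins, was at 4.47 ± 0.736 FPKM in mock and 4.07 ± 1.03 in quinpirole (SD, n = 3 each), a log2 fold change of -0.12 (adjusted p = 0.636). The median of the 15 was -0.06, and -0.02 with the length correction. Of the 26 receptors listed, Adgre4, Adgrf1 and Adgrg7 had no row in the tables.

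**Figure D5:**
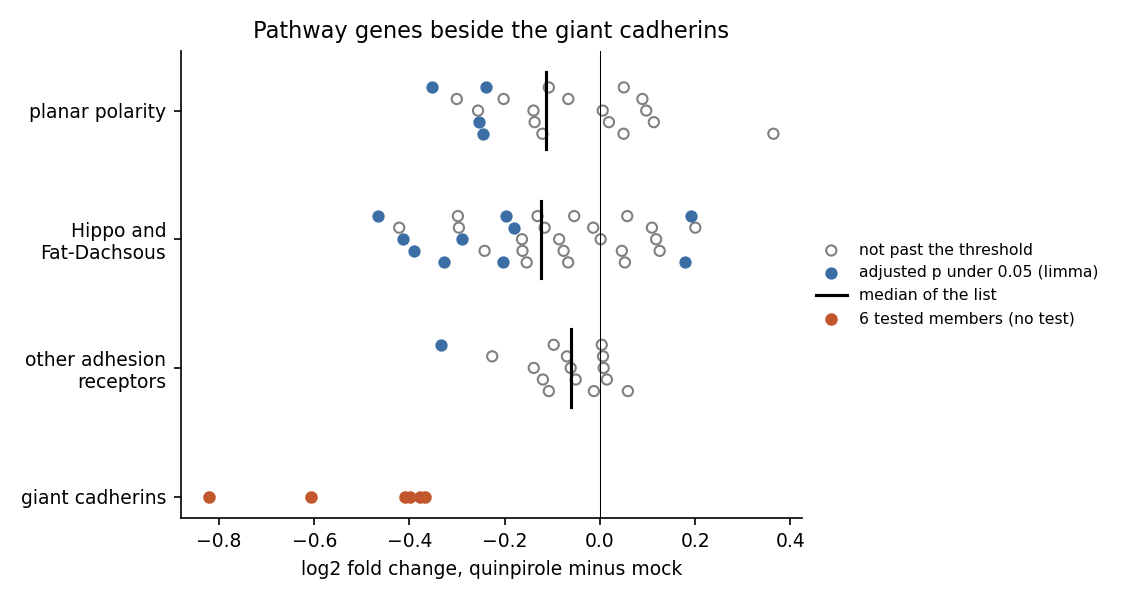
Log2 fold change, quinpirole minus mock (horizontal axis), of the genes compared in the planar polarity, the Hippo and Fat-Dachsous and the other adhesion receptor lists, with genes under an adjusted p of 0.05 filled in blue, list medians as bars at -0.11, -0.12 and -0.06, and the 6 giant cadherins below in red. The cadherins range from -0.82 to -0.37, and most genes of the 3 lists lie closer to 0.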

How the data were processed

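Messenger RNA of astrocytes from mouse brain was sequenced in 6 libraries, 3 mock and 3 quinpirole, grouped by the treatment in the sample labels. The authors mapped paired-end reads with TopHat2 to GRCm38 and deposited FPKM, 1 value for each gene in each library, already divided by transcript length and depth. The TopHat2 version, the program that computed FPKM and its annotation are not given in the sources used here. Counts were not analysed here, so no count model was used. Depth was estimated from 1254 genes with 1 transcript, whose lowest values rise in steps of 1 fragment, and 54.8% to 62.0% of low values lay within 0.1 of a whole number against 20% by chance. It covers counting error only.

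Genes with a mean of at least 1 FPKM were compared on log2(FPKM + 1) with limma 3.58.1 in R 4.3.3 (lmFit, then two-sided moderated statistics with trend, adjusted by Benjamini-Hochberg over all genes, threshold 0.05). An exact permutation test of 3 against 3 libraries cannot give a p below 0.1 and was not used. Symbols (17090 of 17193 rows), exonic lengths and sequences came from GENCODE M21 and promoter windows from RefSeq. The corrections for length and GC content subtracted a loess fit (span 0.3) from each library's deviation. On simulated data for this comparison over 12208 genes, the fit recovered 186 of the 200 genes given a log2 change of 1. It made 4 false calls. The log2 fold changes of the 6 cadherins compared, from -0.82 to -0.37, were smaller in size than 1. Recovery of changes smaller than 1 was not tested. For the same comparison, a simulated length trend gave 230 false calls among 12199 genes without the length correction and 0 among 12167 with it. Tables were made in Python 3.11.15 with pandas 2.3.3 and numpy 2.4.6, and figures with matplotlib 3.10.9.

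Alternatives covered the pseudocount (0.1), the filter (none, or a mean of 5 FPKM), other scalings, both corrections, eBayes without trend, a replicate block and the omission of each library. The members, gene lists, alternatives and tests were chosen with earlier results of these data known. From each list the text names up to 6 genes past the threshold in each direction by smallest p, with genes of known role (Vangl2, Fzd3, Fzd6, Dvl1, Fjx1, Dchs2, Yap1, Wwtr1, Adgrl1, Adgrv1), the 5 genes most correlated with Celsr2, Drd2 and Atp1b2. The precursor markers summed to 2.24 to 2.92 FPKM in mock and 1.84 to 2.05 in quinpirole, endothelial markers to 7.70 to 8.07 and 6.23 to 7.21, oligodendrocyte markers to 156 to 176 and 162 to 173, and choroid plexus markers to 27.5 to 28.7 and 28.7 to 30.1, with no gene of these lists past the threshold.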

Additional observations from a re-analysis of the deposited data

How the results depend on the processing

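All 86 log2 fold changes of the 6 giant cadherins under the alternatives were below 0. Part of this was fixed in advance. The filters, eBayes without trend and the replicate block leave a fold change as it is. In these genes every quinpirole library lay below every mock library. The sign therefore could not change with the pseudocount or with 1 library left out. Of the 86, 71 moved by less than 1 SD of the replicates, including those that could not move. Beyond that, a pseudocount of 0.1 gave -0.49 for Celsr1, -0.68 for Fat3, -0.69 for Fat4 and -0.46 for Dchs1, the length correction -0.30 for Celsr1, -0.49 for Celsr2, -0.13 for Fat3, -0.19 for Fat4 and -0.26 for Dchs1, and length with GC content -0.16 for Celsr1, -0.35 for Celsr2, -0.58 for Fat1, -0.13 for Fat3, -0.15 for Fat4 and -0.12 for Dchs1. Without each library in turn the values ran from -0.46 to -0.37 for Celsr1, -0.65 to -0.54 for Celsr2, -0.41 to -0.33 for Dchs1, -0.95 to -0.71 for Fat1, -0.43 to -0.32 for Fat3 and -0.45 to -0.35 for Fat4. The order of the levels was the same under median ratio scaling and without each library in turn, the only alternatives run for it. Median ratio scaling cannot reorder genes within a library, since all genes of a library share 1 factor. Fat4 and Fat3 could still not be ordered, as given above. Counts of calls were far less stable. The 1339 genes past the threshold became 633 without a filter (304 lower, 329 higher), 788 after quantile normalization (501 lower, 287 higher), 509 with the length correction (253 lower, 256 higher), 273 with length and GC content (130 lower, 143 higher) and 714 by eBayes without trend (421 lower, 293 higher). Same-numbered libraries did not deviate together (r of 0.03, -0.07 and -0.10). This gave no sign of a pairing by replicate number, but so few correlations cannot exclude one. With the replicate block 2 genes passed by limma (1 lower, 1 higher, with 3308 at an unadjusted p under 0.05). Passing in that fit were 0 cadherins (6 unadjusted), 0 planar polarity genes (8 unadjusted lower), 0 Hippo genes lower (13 unadjusted) or higher and 0 adhesion receptors. Without 1 library the total ran from 3 to 1215 (2 to 546 lower, 1 to 669 higher), with 6, 3 and 1215 genes without mock libraries 1, 2 and 3 and 11, 25 and 210 without quinpirole libraries 1, 2 and 3, while 2891 to 3920 had an unadjusted p under 0.05. Of the cadherins, 0 to 6 passed then, 0 without mock library 1, mock library 2 or quinpirole library 1, 1 without quinpirole library 2, 2 without quinpirole library 3 and 6 without mock library 3, with 6 at an unadjusted p under 0.05 each time. Cadherin calls were also 3 with the length correction, 2 with length and GC content and 2 at a minimum of 5 FPKM, where only 2 were compared and 2 had a lower mean. Of all 12255 genes, 1290 to 1701 were lower at an unadjusted p under 0.05 without 1 library, and 1473 with the replicate block. As the same contrast chose the family, nothing is read from any of these cadherin counts. Planar polarity genes past the threshold as lower were 2 with length and GC content and 0 to 5 without 1 library. Hippo pathway genes lower were 5 without a filter, 4 with length, 1 with length and GC content, 4 without trend and 0 to 7 without 1 library, and those higher were 0 under quantile normalization, both corrections and without trend, and 0 to 1 without 1 library. Adhesion receptors lower were 0 without a filter, with either correction and without any 1 library. The cause of the changes in counts was not tested.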
